A study of Mus musculus with 10 samples.

Results

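The genes described here are 10 markers of intestinal stem cells and of the crypt base: Lgr5, Ascl2, Smoc2, Sox9, Ephb2, Lrig1, Prom1, Tnfrsf19, Olfm4 and Myc. They were chosen by symbol, and the FPKM values (sequenced fragments relative to transcript length and library size) of their RefSeq transcripts were summed per gene. All 10 had a row in the deposited table, with 19 transcripts among them, out of 23473 genes in all. All 10 also passed the filter for testing (at least 1 FPKM in at least 2 libraries), which 14061 genes passed. Olfm4 passed it only through its 2 highest libraries.

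RNA-seq was run on colon tissue of C57BL/6 mice in 5 groups of 2 libraries each, named replicate 0 and replicate 1. An age of 6 weeks is listed for the mice of all 5 groups. Control mice were injected with saline and fed AIN-93M. Model mice were on that diet too, were 6 weeks old when they received azoxymethane (AOM), a colon carcinogen, at 10 mg/kg, and later drank dextran sulfate sodium (DSS), which injures the colon lining, at 1.2% for 7 days. Mice of the other 3 groups had the same AOM and DSS, and their AIN-93M held 0.02% aspirin (ASA group), 2% curcumin (CUR group), or 0.01% aspirin with 1% curcumin (ASA+CUR group). The combination therefore held less of each agent than the single diets did. The Control tissue is labelled as colon and that of the 4 AOM/DSS groups as tumour, whereas the tissue protocol describes colon frozen once palpable tumours were taken out. Epcam, a surface protein of epithelial cells, lay between 746 and 1352 FPKM in the 10 libraries, so epithelium was present in each. Nothing in the labels tells whether both libraries of a group were from different mice, so p-values cover no more than library-to-library spread, part of which may be technical.

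The colon lining is renewed by stem cells at the base of the crypts, which are held in that state mainly by Wnt signals from the cells around them. Wnt stabilises beta-catenin, which acts with TCF/LEF proteins on DNA and raises genes such as Lgr5, Ascl2, Sox9, Ephb2 and Myc. Most intestinal tumours carry mutations that leave this pathway active, and many of them express crypt base genes.

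Relative to Control, 7 of the 10 markers rose and 1 fell when the 4 AOM/DSS groups were averaged, at a limma adjusted p below 0.05. Lgr5, Ascl2, Smoc2, Sox9, Ephb2, Tnfrsf19 and Myc rose, Lrig1 fell, and Prom1 and Olfm4 did not pass. In this comparison 31.5% of all tested genes passed, of which the risers were 14.6% of genes and the fallers 16.9%. The median difference of the 10 markers was 1.01 in log2(FPKM + 1), against 0.02 for all genes tested. Fold changes on that scale understate the change of low genes. In bulk tissue, fewer cells of a type and less RNA per cell cannot be told apart.

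**Figure D1:**
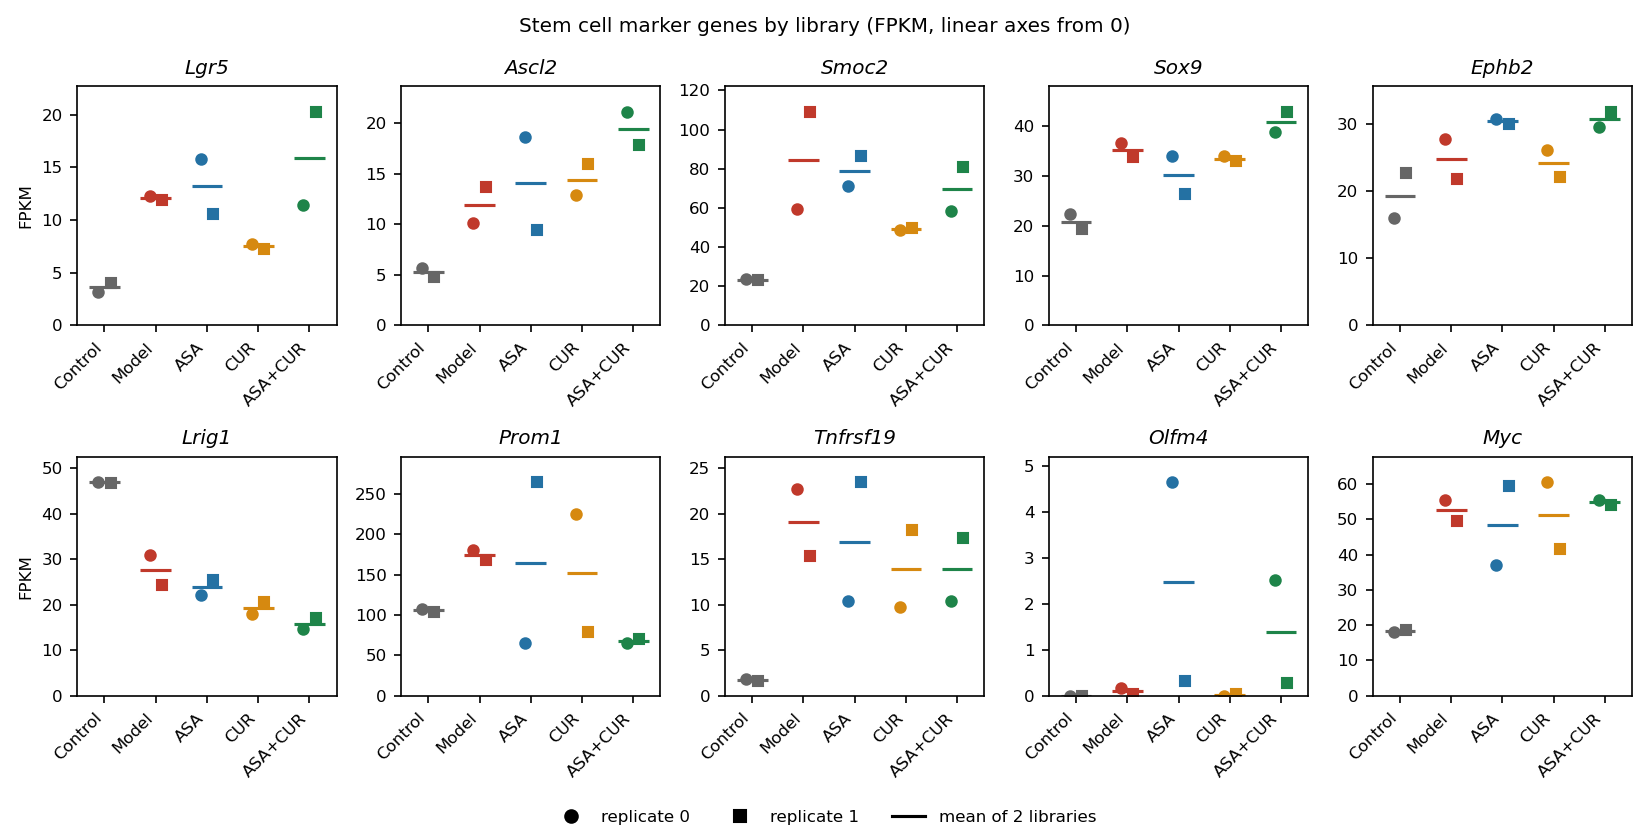
FPKM of the 10 marker genes (vertical axes, linear from 0) in each library of the 5 groups; circles are replicate 0, squares replicate 1 and bars the mean of 2 libraries. In Lgr5, Ascl2, Smoc2, Sox9, Tnfrsf19 and Myc all 8 AOM/DSS libraries lie above both Control libraries, as in 20.1% of all tested genes. In Lrig1 all 8 lie below, as in 20.3% of all tested genes.

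Lgr5, the R-spondin receptor that defines cycling crypt base stem cells, lies on chromosome 10 (115450311 to 115587780, minus strand, GRCm38 as for all positions here). With replicate 0 first in each pair, its Control libraries were at 3.15 and 4.05 FPKM and its Model libraries at 12.3 and 11.9. The ASA libraries were at 15.8 and 10.6, the CUR libraries at 7.77 and 7.22, and the ASA+CUR libraries at 11.4 and 20.3. Every AOM/DSS library was above both Control libraries, and the CUR libraries were the lowest of the 8. Mean Lgr5 in Model was 3.36 times that of Control, a difference of 1.52 ± 0.28 (SE) in log2(FPKM + 1) with an adjusted p of 0.0114. ASA (1.61 ± 0.28, adjusted p = 0.00644) and ASA+CUR (1.83 ± 0.28, adjusted p = 0.00307) passed as well. CUR against Control was 0.89 ± 0.28 and missed the threshold with an adjusted p of 0.0715.

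Ascl2, a transcription factor that acts beside Wnt in stem cell fate (chromosome 7, 142966829 to 142969264, minus strand), was at 5.72 and 4.77 FPKM in Control and 10.1 and 13.7 in Model. It had 18.7 and 9.47 FPKM in the ASA libraries, 12.9 and 15.9 in CUR, and 21.2 and 17.8 in ASA+CUR. All 8 AOM/DSS libraries lay above Control, with ASA replicate 1 the lowest of them. The Model difference of 1.04 ± 0.30 just missed the threshold (adjusted p = 0.0522), while ASA (1.21 ± 0.30, adjusted p = 0.0251), CUR (1.30 ± 0.30, adjusted p = 0.0246) and ASA+CUR (1.71 ± 0.30, adjusted p = 0.00526) passed. The Model value passed in 7 of 20 alternative settings, and the ASA and CUR values in 15 each. Without ASA replicate 0 the ASA difference was 0.75 (adjusted p = 0.0959).

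Sox9 encodes a transcription factor of the lower crypt (chromosome 11, 112782224 to 112787760, plus strand). Its FPKM was 22.3 and 19.3 in Control and 36.6 and 33.8 in Model. The ASA libraries had 34.1 and 26.4, the CUR libraries 34.0 and 33.0, and the ASA+CUR libraries 38.8 and 43.0. The groups did not overlap with Control, and the increase as a fold of the Control mean was smaller than that of Lgr5 in every AOM/DSS group. Sox9 differed by 0.73 ± 0.16 in Model (adjusted p = 0.0211), 0.66 ± 0.16 in CUR (adjusted p = 0.0288) and 0.94 ± 0.16 in ASA+CUR (adjusted p = 0.00465), and by 0.51 ± 0.16 in ASA, where it missed the threshold (adjusted p = 0.0545). The CUR call was kept in 12 of 20 alternatives.

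Myc, the growth-promoting transcription factor and a known Wnt target, lies on chromosome 15 (61985391 to 61990374, plus strand). Control had 18.0 and 18.8 FPKM of Myc and Model 55.6 and 49.4. Of the diet groups, ASA had 37.1 and 59.4, CUR 60.5 and 41.7, and ASA+CUR 55.6 and 54.1. The lowest AOM/DSS library, ASA replicate 0, was still well above both Controls. Myc passed in each of the 4 groups, with differences from 1.31 to 1.53 and adjusted p from 0.00365 to 0.00859. Its 2 transcripts differ in their start, and NM_001177352 made up 54.8% to 80.5% of the sum.

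Smoc2, a secreted matrix-associated protein found in the stem cell zone (chromosome 17, 14279506 to 14404790, plus strand), was at 23.7 and 23.0 FPKM in Control and at 59.6 and 109 in Model. The ASA libraries had 71.4 and 86.3, the CUR libraries 48.6 and 49.96, and the ASA+CUR libraries 58.2 and 80.9. No AOM/DSS library overlapped with Control, and the CUR libraries were again the lowest, as for Lgr5. Smoc2 passed in all 4 groups, from 1.05 ± 0.28 in CUR (adjusted p = 0.0416) to 1.75 ± 0.28 in Model (adjusted p = 0.00673). The CUR call was kept in 9 of 20 alternatives.

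Ephb2, a receptor tyrosine kinase that keeps cells at their place along the crypt (chromosome 4, 136647539 to 136835988, minus strand), had 16.0 and 22.7 FPKM in Control. It had 27.9 and 21.8 in Model, and 30.8 and 30.1, 26.1 and 22.2, and 29.6 and 31.9 with ASA, CUR and ASA+CUR. Model replicate 1 and CUR replicate 1 lay between the 2 Control libraries, so these groups overlapped with Control. The averaged difference was 0.50 ± 0.16 with an adjusted p of 0.0431, and it was lost in 10 of 20 alternatives. Without Control replicate 0 it was 0.26 with an adjusted p of 0.397. Ephb2 passed in ASA (0.65 ± 0.20, adjusted p = 0.0493) and ASA+CUR (0.66 ± 0.20, adjusted p = 0.0382), and neither in Model (0.35 ± 0.20, adjusted p = 0.261) nor in CUR (0.32 ± 0.20, adjusted p = 0.311). The ASA call was kept in 7 of 20 alternatives and the ASA+CUR call in 13, and without Control replicate 0 they were 0.41 (adjusted p = 0.282) and 0.42 (adjusted p = 0.231).

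Tnfrsf19, also called Troy, is a Wnt-induced receptor of the TNF receptor family that marks slowly cycling crypt base cells (chromosome 14, 60963875 to 61046490, minus strand). The table holds 2 of its transcripts with separate starts, so the 250 bases before each of the 2 start sites in RefSeq (GRCm38.p6) are printed here, 5′ to 3′ on the minus strand. The first is chr14:61046856-61047105 and the second chr14:61037988-61038237. Capitals mark a TCF/LEF core, searched on both strands as CAAAG with A or T at each of the 2 bases before it.
Tnfrsf19 start 1: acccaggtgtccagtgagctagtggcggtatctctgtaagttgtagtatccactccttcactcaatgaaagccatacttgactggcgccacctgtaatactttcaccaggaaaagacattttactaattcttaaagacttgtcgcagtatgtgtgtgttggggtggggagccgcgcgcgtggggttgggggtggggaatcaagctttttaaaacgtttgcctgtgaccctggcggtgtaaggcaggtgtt
Tnfrsf19 start 2: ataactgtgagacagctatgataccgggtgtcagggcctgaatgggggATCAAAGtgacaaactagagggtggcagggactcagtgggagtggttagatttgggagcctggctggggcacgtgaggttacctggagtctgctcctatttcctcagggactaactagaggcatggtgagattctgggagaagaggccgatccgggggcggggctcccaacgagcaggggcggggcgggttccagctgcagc

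The spelling ATCAAAG stood at position -202 from the second Tnfrsf19 start. It was the single match in the 8 windows of 300 bases (250 before to 50 after a start) that RefSeq gave for 6 of the markers. Of all 32851 such windows, 16.88% held at least 1 match. A match describes letters and shows no binding. Lgr5, Smoc2, Sox9 and Myc had no window in the table.

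Tnfrsf19 was at 1.80 and 1.58 FPKM in Control and at 22.7 and 15.4 in Model. Its ASA libraries had 10.4 and 23.5, its CUR libraries 9.72 and 18.2, and its ASA+CUR libraries 10.4 and 17.3. It had the largest fold of Control among the markers, and its AOM/DSS libraries, though spread, stayed far from both Control values. Mean levels were 11.3 times Control with Model, 10.0 times with ASA, 8.26 times with CUR and 8.22 times with ASA+CUR. On the log2(FPKM + 1) scale the Model difference was 2.87 ± 0.43 (adjusted p = 0.00521), and all 4 groups passed, with adjusted p of 0.00923 or less.

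Both Tnfrsf19 transcripts were higher with AOM/DSS. NM_013869, whose annotated start lies 386 bases from the first RefSeq start, was at 0.490 and 0.668 FPKM in Control and between 1.36 (CUR replicate 0) and 14.7 (ASA replicate 1) in the other 8 libraries. NM_001164155, which starts 37 bases from the second start, was at 1.31 and 0.913 FPKM in Control and between 4.38 (ASA+CUR replicate 0) and 11.2 (Model replicate 0) elsewhere. The share of NM_001164155 ran from 31.4% to 86.0% over all libraries, with the 2 Control libraries inside that range, and no group kept a share of its own. These shares are estimates of the authors' transcript model. With the transcript of the highest mean in place of the sum, the CUR difference of Tnfrsf19 went from 2.42 to 1.57 and no longer passed (adjusted p = 0.188). The CUR call was also lost without Control replicate 0 (adjusted p = 0.0593) and without Control replicate 1 (adjusted p = 0.0685).

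**Figure D2:**
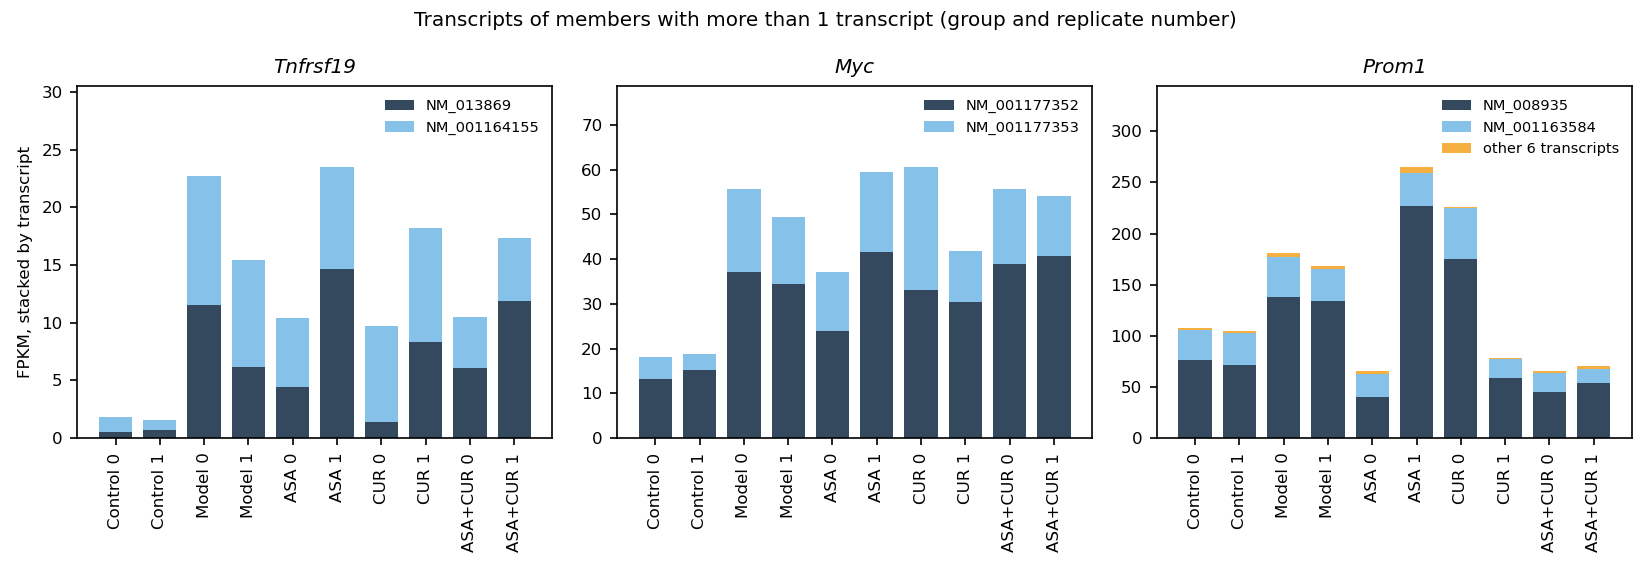
FPKM stacked by transcript (vertical axes, linear from 0) in each library for Tnfrsf19, Myc and Prom1, the markers with more than 1 transcript. Both Tnfrsf19 transcripts are higher in each AOM/DSS library than in the Control libraries, and NM_008935 makes up 60.7% to 85.6% of Prom1.

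Lrig1, a membrane protein that dampens ErbB receptor signalling and marks a largely quiescent stem cell pool, lies on chromosome 6 (94604529 to 94700158, minus strand). It was the marker that fell. Its Control libraries were close, at 47.0 and 46.9 FPKM, and Model had 30.9 and 24.5, ASA 22.2 and 25.4, CUR 18.0 and 20.6, and ASA+CUR 14.6 and 17.1. All 8 AOM/DSS libraries lay below Control, and the ASA+CUR libraries were the lowest. As parts of the Control mean, Model was at 0.591, ASA at 0.508, CUR at 0.412 and ASA+CUR at 0.338. The ASA libraries overlapped with those of Model, whereas the CUR and ASA+CUR libraries were below both Model libraries. How many of all genes were set apart from Model in this way was not counted.

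Against Control, Lrig1 fell by 0.75 ± 0.16 in Model (adjusted p = 0.0217), 0.95 ± 0.16 in ASA (adjusted p = 0.00626), 1.24 ± 0.16 in CUR (adjusted p = 0.00275) and 1.51 ± 0.16 in ASA+CUR (adjusted p = 0.000763), all on the log2(FPKM + 1) scale. Control libraries had the highest FPKM sums but for CUR replicate 0, which lay between them. Scaling every library to the same sum put the median difference of all genes at 0.26 and Lrig1 at -0.50 in Model (adjusted p = 0.144). Scaling to a list of general epithelial genes put that median at 0.39 and Lrig1 at -0.38 (adjusted p = 0.372). The ASA call was lost under both as well (-0.63, adjusted p = 0.063, and -0.62, adjusted p = 0.148), and the CUR and ASA+CUR calls were kept.

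Prom1, the membrane glycoprotein CD133, was the most abundant marker in every group but ASA+CUR, where Smoc2 had the higher mean. It lies on chromosome 5 (43993620 to 44102032, minus strand). Its main transcripts NM_008935 and NM_001163584 begin at separate sites, and the 250 bases before both RefSeq starts (chr5:44101737-44101986 and chr5:44094769-44095018, 5′ to 3′ on the minus strand) are given to tell them apart. Neither holds a TCF/LEF core, so there are no capitals.
Prom1 start 1: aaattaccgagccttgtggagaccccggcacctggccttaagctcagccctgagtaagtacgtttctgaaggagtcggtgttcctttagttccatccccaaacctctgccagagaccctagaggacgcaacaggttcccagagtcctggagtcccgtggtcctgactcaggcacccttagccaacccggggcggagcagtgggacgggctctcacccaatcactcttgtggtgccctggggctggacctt
Prom1 start 2: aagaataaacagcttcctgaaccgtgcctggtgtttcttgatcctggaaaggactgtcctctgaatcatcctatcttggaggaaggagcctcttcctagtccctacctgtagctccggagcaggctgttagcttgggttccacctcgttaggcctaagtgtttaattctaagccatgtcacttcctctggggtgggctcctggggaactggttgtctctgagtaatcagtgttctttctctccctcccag

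The Control libraries had 107 and 104 FPKM of Prom1, Model 181 and 168, ASA 65.5 and 265, CUR 226 and 78.5, and ASA+CUR 65.3 and 70.0. Of the 8 AOM/DSS libraries, 4 were above both Controls and 4 were below, and the ASA and CUR groups each had a library on either side. Prom1 did not pass in any comparison with Control. The averaged difference was 0.18 with a 95% confidence interval from -0.99 to 1.35 (adjusted p = 0.812). When only the 2 groups compared entered the fit, with their own narrow spread, Model was higher (0.72, adjusted p = 0.0224) and ASA+CUR lower (-0.64, adjusted p = 0.0077).

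Both main Prom1 transcripts were lower in the 4 AOM/DSS libraries with Prom1 below Control than in the other 4. These libraries were picked by the summed level, of which NM_008935 made up 60.7% to 85.6%. Its lower level there thus follows from the choice. NM_008935, whose start lies 55 bases from the first RefSeq start, was at 39.7 FPKM in ASA replicate 0, 58.4 in CUR replicate 1, and 44.6 and 53.4 in ASA+CUR, and between 134 and 227 in the other 4 AOM/DSS libraries. NM_001163584, which begins at the second start, was at 23.0, 19.1, 18.5 and 14.3 in those 4 libraries and between 30.8 and 49.2 in the other 4. In Control, NM_008935 was at 76.4 and 71.6 FPKM and NM_001163584 at 29.2 and 30.6. The share of NM_001163584 in the sum ran from 12.3% to 35.1% over all libraries. Each of the other 6 Prom1 transcripts stayed at 2.06% of the sum or less.

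Genes that mark position along the gut differed between the same libraries. Hoxd13, a homeobox gene of the hindmost gut, was at 75.7 FPKM in ASA replicate 0, 71.6 in CUR replicate 1, and 87.7 and 65.2 in ASA+CUR, and at 8.35 or less in the other 4 AOM/DSS libraries and the Controls. Cdx2, an intestinal homeobox gene, was at 5.22, 11.4, 6.34 and 7.05 in those 4 libraries, between 61.1 and 126 in the other AOM/DSS libraries, and at 139 and 124 in Control. The summed level of the 8 position genes was 338, 432, 338 and 315 FPKM in those 4 libraries, between 108 and 204 in the other 4, and 386 and 464 in Control. None of the 8 was at 0 in all libraries of Control or of AOM/DSS. The part of tissue position in the Prom1 values was not tested.

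**Figure D3:**
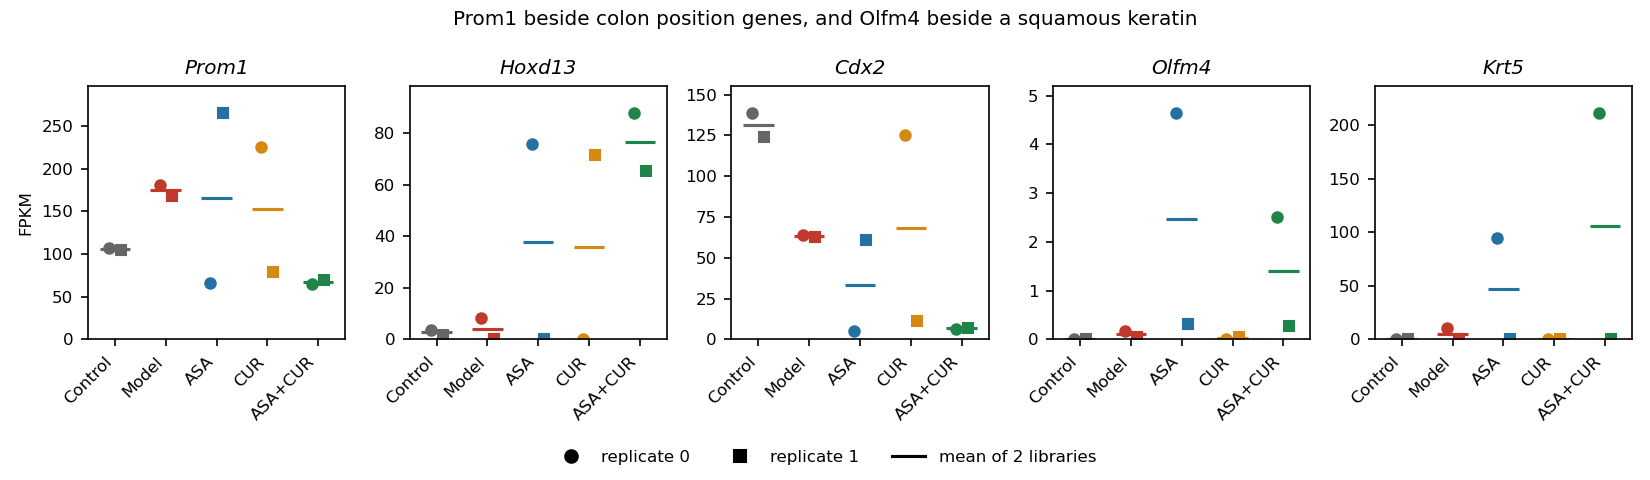
FPKM (vertical axes, linear from 0) of Prom1, Hoxd13, Cdx2, Olfm4 and Krt5 in each library of the 5 groups; circles are replicate 0, squares replicate 1 and bars the mean of 2 libraries. The 4 AOM/DSS libraries with Prom1 below Control have Hoxd13 at 65.2 to 87.7 and Cdx2 at 11.4 or less, and the 2 libraries highest in Olfm4 are the 2 highest in Krt5.

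Olfm4, a secreted glycoprotein that marks crypt base stem cells in human gut and mouse small intestine (chromosome 14, 79984081 to 80023139, plus strand), is listed at 0 in both Control libraries. The Model libraries had 0.177 and 0.0447 FPKM, the ASA libraries 4.64 and 0.313, the CUR libraries 0 and 0.0424, and the ASA+CUR libraries 2.52 and 0.274. Only ASA replicate 0 and ASA+CUR replicate 0 exceeded 1 FPKM. The gene passed in no comparison with Control (adjusted p between 0.156 and 0.984). It passed in ASA against Control only when ASA replicate 1 was left out (adjusted p = 0.0275), which leaves 1 library in that group. A value of 0 in FPKM can be a failed estimate, so no fold is given.

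Some squamous epithelial genes were highest in the same 2 libraries. Krt5, a keratin of basal squamous cells, was at 94.5 FPKM in ASA replicate 0 and 212 in ASA+CUR replicate 0, 10.3 in Model replicate 0, and 0.161 or less in the other libraries. Trp63, which defines squamous basal cells, was at 2.42 and 5.64 in those 2 libraries and listed at 0 in both Controls. The summed level of the 10 squamous genes was 383 and 847 in the 2 libraries, between 16.1 and 176 in the other 6 AOM/DSS libraries, and 1.94 to 2.81 in Control. Not every gene of the list followed that order: Krt1, Krt10 and Krtdap, of cornifying squamous layers, were highest in Model replicate 0 (10.3, 17.6 and 13.6 FPKM), and Dsg3 was at 2.77 in ASA replicate 0, below CUR replicate 0 (3.48) and ASA+CUR replicate 1 (4.34). The part of these genes in the Olfm4 values was not tested.

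Counted by group, the markers moved as follows, with all comparisons against Control sharing the same 2 Control libraries. In Model 6 markers passed, 5 of them higher and 1 lower, against 16.2% of all genes (6.84% higher and 9.34% lower). In ASA 7 passed, 6 of them higher, against 22.5% of all genes (9.78% higher and 12.7% lower). In CUR 6 passed, 5 of them higher, against 15% of all genes (6.67% higher and 8.34% lower). In ASA+CUR 8 passed, 7 of them higher, against 29.5% of all genes (13.1% higher and 16.4% lower). Lrig1 was the falling gene each time, and Smoc2, Tnfrsf19 and Myc rose in each of the 4 groups. The median difference of the markers was 0.89 (Model), 1.26 (ASA), 0.78 (CUR) and 1.30 (ASA+CUR), against 0.03 or less for all genes.

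Independent of any test, 6 markers had all 8 AOM/DSS libraries above both Controls, as did 20.1% of all genes. Lrig1 had all 8 below, as did 20.3%. The counts leaned on the Control libraries. Without either of them fewer markers passed in Model, ASA and CUR, and in Model fewer of all genes passed as well. Fewer markers also passed in Model without Model replicate 1 and in CUR without CUR replicate 0. Each of these fits left 1 library in a group, and for ASA and CUR the calls among all genes in them were not counted. Without Control replicate 0 the Model differences were 1.37 for Lgr5, 0.83 for Sox9, 1.43 for Myc and -0.75 for Lrig1. Without Control replicate 1 they were 1.66, 0.63, 1.49 and -0.75 in that order. In the main fit they were 1.52, 0.73, 1.46 and -0.75. Lgr5, Smoc2, Lrig1, Tnfrsf19 and Myc kept their averaged call in all 20 alternatives, whereas Ascl2 (adjusted p = 0.0697) and Sox9 (adjusted p = 0.0748) lost theirs without Control replicate 1.

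**Figure D4:**
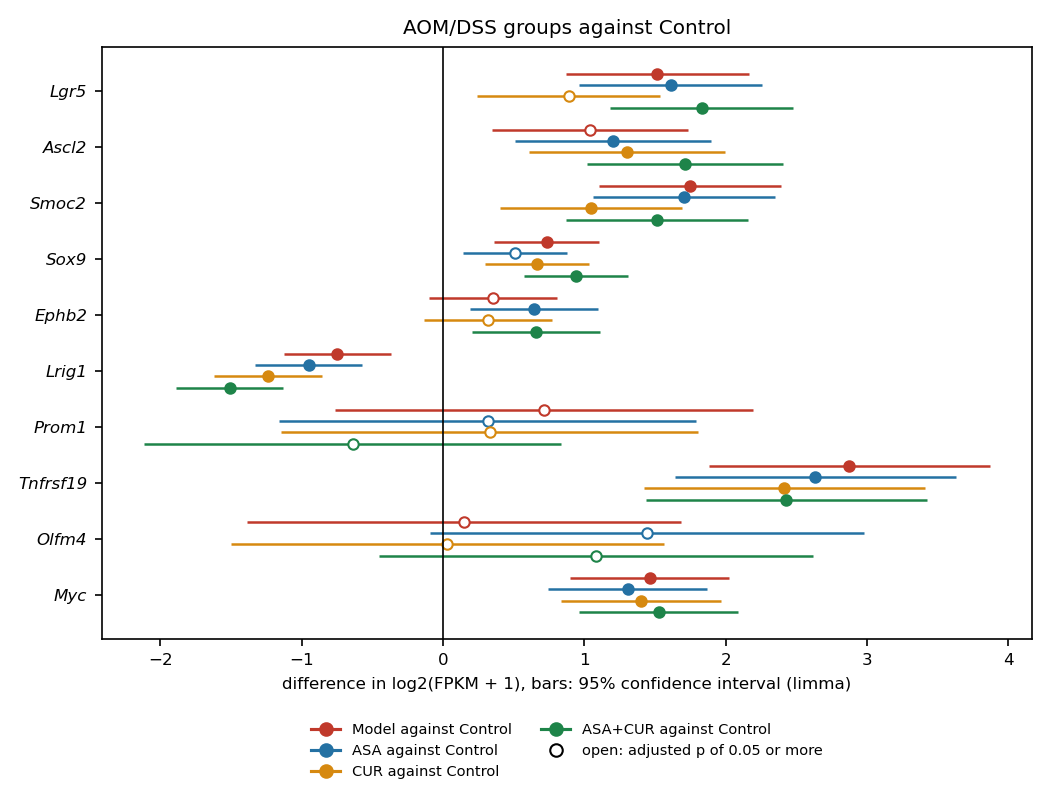
Difference of each AOM/DSS group from Control in log2(FPKM + 1) (horizontal axis) for the 10 markers (vertical axis); points are limma estimates, bars 95% confidence intervals, and open points have an adjusted p of 0.05 or more. Tnfrsf19 has the largest differences, 2.42 to 2.87, Lrig1 lies below 0 in all 4 groups, and the Prom1 intervals all cross 0.

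Among the AOM/DSS groups, no marker passed. ASA against Model called 0 of 10 markers and 0.0142% of all genes, CUR against Model 0 markers and 0.00711% of genes, and ASA+CUR against Model 0 markers and 0.0142% of genes. ASA+CUR against ASA and against CUR, where the doses of each agent differ, called 0 markers and 0% of genes. These are 50 tests on markers, of which 6 had an unadjusted p below 0.05, and the smallest adjusted p was 0.309. Genes with an unadjusted p below 0.05 numbered 335, 684, 1416, 399 and 1944 in the 5 comparisons in that order.

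Lrig1 accounted for 3 of the 6. ASA+CUR against Model gave -0.76 for Lrig1 (95% interval -1.14 to -0.38, unadjusted p = 0.00171, adjusted p = 0.313). CUR against Model gave -0.49 for Lrig1 (-0.87 to -0.11, adjusted p = 0.934) and -0.70 for Smoc2 (-1.34 to -0.06, adjusted p = 0.934). ASA+CUR against ASA gave -0.56 for Lrig1 and 0.43 for Sox9 (adjusted p = 1 for both). Under scaling to the same FPKM sum, the Lrig1 difference of ASA+CUR from Model was -0.65 (adjusted p = 0.463).

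Lgr5 had the sixth of these values, in ASA+CUR against CUR (0.94, 95% interval 0.29 to 1.59, adjusted p = 0.309). CUR against Model was -0.63 for Lgr5 (-1.27 to 0.02, adjusted p = 0.934). For ASA against Model the intervals of Lgr5 (-0.55 to 0.74), Myc (-0.72 to 0.41) and Tnfrsf19 (-1.24 to 0.75) left room for changes of either sign. The intervals of Prom1 (-1.88 to 1.08) and Olfm4 (-0.24 to 2.83) were the widest there.

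**Figure D5:**
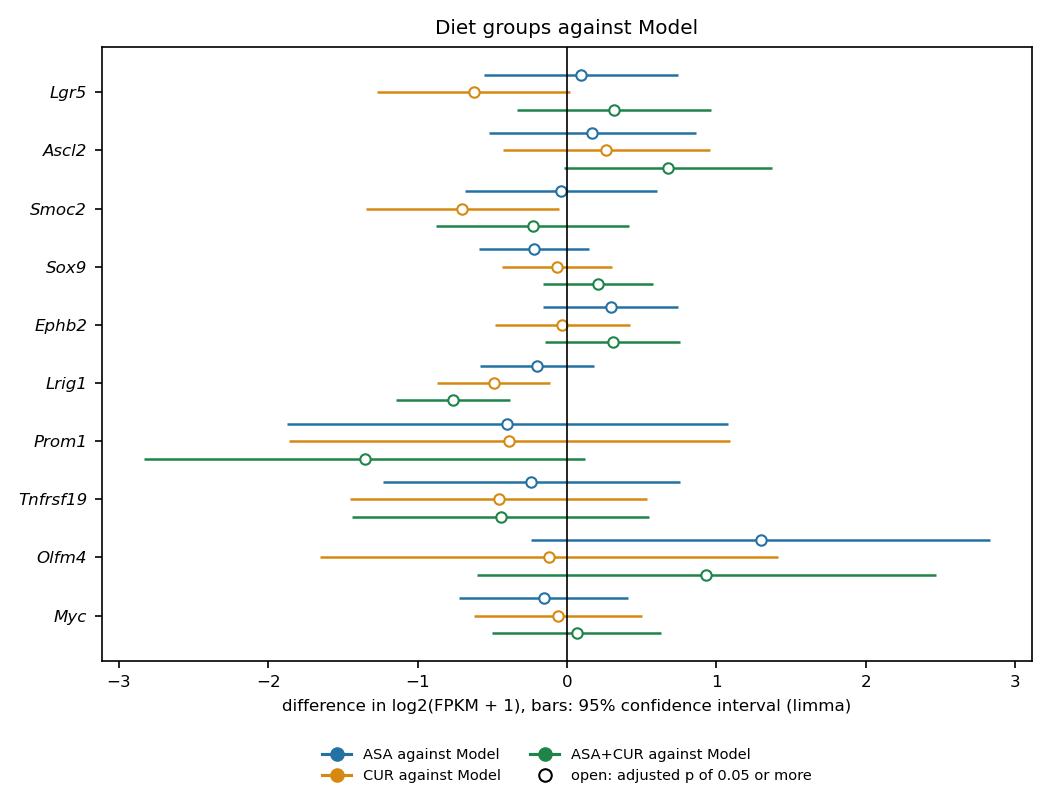
Difference of each diet group from Model in log2(FPKM + 1) (horizontal axis) for the 10 markers (vertical axis); points are limma estimates, bars 95% confidence intervals, and every point is open because no adjusted p is below 0.05. The ASA+CUR interval of Lrig1, -1.14 to -0.38, is the one farthest from 0.

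The markers differed in how much they varied across the 8 AOM/DSS libraries. The SD of log2(FPKM + 1) was 0.94 for Olfm4, 0.86 for Prom1, 0.48 for Tnfrsf19, 0.45 for Lgr5, 0.40 for Smoc2, 0.39 for Ascl2 and 0.33 for Lrig1. Myc (0.25), Ephb2 (0.20) and Sox9 (0.20) were at or below the median of all tested genes, 0.257. As fragments per kilobase, Prom1 ran over a 4.06-fold range from lowest to highest library, Lgr5 over 2.81-fold and Ephb2 over 1.46-fold.

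The order of the markers by mean FPKM changed between groups. In Control it was Prom1 (106), Lrig1 (46.9), Smoc2 (23.3), Sox9 (20.8), Ephb2 (19.3), Myc (18.4), Ascl2 (5.24), Lgr5 (3.60), Tnfrsf19 (1.69) and Olfm4 (0). The Ephb2 libraries overlapped there with those of Sox9 and of Myc, so these neighbours were not set apart, and the other neighbours did not overlap. In Model, Smoc2 (84.4) and Myc (52.5) stood above Sox9 (35.2) and Lrig1 (27.7), and Tnfrsf19 (19.0) stood above Lgr5 (12.1) and Ascl2 (11.9). Lgr5 and Ascl2 overlapped in Model, and Ephb2 (24.8) overlapped with Lrig1 and with Tnfrsf19. Lrig1 was thus the second marker in Control, the fifth in Model and the eighth in ASA+CUR, where its mean of 15.9 equalled that of Lgr5 at 3 digits.

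Likeness between patterns was measured as the root mean square difference of centred log2(FPKM + 1) over the 10 libraries, where a small value means a like pattern. Among the markers, Sox9 and Ephb2 (0.272) and Lgr5 and Smoc2 (0.346) were the closest pairs. Of 14060 other genes, the 5 closest to Lgr5 were Lgi2 (0.210), Rcor2 (0.221), Medag (0.229), Arsi (0.233) and Homer3 (0.242). Smoc2 was the marker nearest to Lgr5, at rank 78. The measure favours genes of similar amplitude and says nothing of shared function or control.

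Lgi2 followed Lgr5 at lower levels, with 0.789 and 0.882 FPKM in Control, 2.38 and 2.69 in CUR, and 4.38 and 6.44 in ASA+CUR. The 5 genes closest to Olfm4 were Tmprss11g (0.313), A330102I10Rik (0.315), Lypd2 (0.323), U90926 (0.338) and Ces2f (0.342). Since they were chosen by likeness over the same libraries, their levels are a description. Lypd2 was at 6.82 and 4.88 FPKM in ASA replicate 0 and ASA+CUR replicate 0, 0.208 in Model replicate 0 and 0 in the other 7 libraries.

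Other genes of the crypt base and of the Wnt response mostly moved with the markers. Of 18 tested, 10 rose and 2 fell in Model against Control, with a median of 1.44, against 6.84% and 9.34% of all genes. Nkd1, a Wnt-induced inhibitor of the pathway, rose from 7.58 ± 1.82 (SD, n = 2) to 104 ± 4.41 FPKM (adjusted p = 0.000985). Rnf43, a ubiquitin ligase that removes Wnt receptors, rose from 8.59 ± 0.565 to 43.6 ± 4.56 (adjusted p = 0.00109), and Axin2, the feedback inhibitor used as a Wnt reporter, from 13.5 ± 0.605 to 67.8 ± 9.28 (adjusted p = 0.0038). Tcf7, a TCF/LEF factor, and Mex3a, an RNA-binding protein of stem cells, rose by 2.82 and 2.41 in log2(FPKM + 1), with adjusted p of 0.00131 and 0.00167. The fallers were Rgmb (-1.48, adjusted p = 0.00883), a co-receptor of BMP signalling, and Cdx1 (-1.37, adjusted p = 0.0287), an intestinal homeobox factor. Lgr4, the close relative of Lgr5, had 56.5 ± 10.5 FPKM in Control and 39.0 ± 13.0 in Model and did not pass (adjusted p = 0.288).

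Of 6 markers of reserve or injury-responsive cells, 5 rose in the average of the 4 groups, where 14.6% of all genes rose. In Model 2 rose, where 6.84% of all genes rose and 9.34% fell. Clu, which marks revival stem cells after injury, rose from 19.9 ± 2.49 to 371 ± 163 FPKM (adjusted p = 0.00745), and Bmi1, a Polycomb protein, from 8.30 ± 0.493 to 14.3 ± 0.367 (adjusted p = 0.0463). Among 15 niche ligands and Notch genes, 4 rose and 2 fell in Model. The ligands Wnt6, Wnt3, Wnt5a and Wnt10a rose by 3.62, 1.55, 2.19 and 3.09, and Egf, a growth factor, was among those that fell, by 1.13, all in log2(FPKM + 1) with adjusted p between 0.00236 and 0.0318. Of 15 proliferation genes 4 rose and none fell, namely Ccnd1 (0.99, adjusted p = 0.00889), Mcm3, Mcm7 and Mcm4. Mki67, the usual proliferation marker, had a difference of 0.05 (adjusted p = 0.942). Its Model libraries, at 21.5 and 11.7 FPKM, lay on either side of the Control libraries, at 16.9 and 13.9.

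Markers of several other cell types changed beside the stem cell markers, to be read against the 6.84% of all genes that rose and the 9.34% that fell in Model. All 12 smooth muscle genes fell in Model, and their summed level was 6598 and 10710 FPKM in the Control libraries and 366 to 1130 in the 8 AOM/DSS libraries. Des, a muscle filament protein, fell from 1151 ± 425 to 75.8 ± 10.6 FPKM (adjusted p = 0.000776). No member of this list was at 0 in all libraries of either kind. Of 15 genes of differentiated colon epithelium 11 fell and none rose, among them the water channel Aqp8 (-4.39), the secretory fate factor Atoh1 (-1.65) and the goblet cell lectin Zg16 (-2.54). Of 10 fibroblast genes 4 rose, with summed levels of 528 and 611 in Control and 630 to 1320 elsewhere. In the same comparison 9 of 11 enteric neuron and glia genes fell, and 3 of 11 immune genes and 5 of 6 Paneth cell genes rose. In 3 lists a single gene passed: 1 of 6 endothelial genes and 1 of 9 squamous genes rose, and 1 of 7 position genes fell. The squamous list still had a median difference of 1.94 in log2(FPKM + 1) in Model. In the average of the 4 groups, 5 of the 9 squamous and 1 of the 6 endothelial genes rose. There 2 of the 7 position genes fell, and 14.6% of all genes rose and 16.9% fell.

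Of 14 general epithelial genes none rose or fell past the threshold in Model, where 16.2% of all genes passed. Their median difference there was -0.32 in log2(FPKM + 1). In the average of the 4 groups 2 of the 14 fell, against 16.9% of all genes. Their summed level was 11780 and 13460 FPKM in Control and 7743 to 16390 in the other libraries. Epcam differed by -0.05 (adjusted p = 0.929). The sum of the 10 stem cell markers was 245 in both Control libraries and 287 to 536 in the others. Relative to the general epithelial genes, Lgr5 (1.89, adjusted p = 0.00661), Ascl2 (1.41, adjusted p = 0.0412), Smoc2 (2.12, adjusted p = 0.00387), Sox9 (1.10, adjusted p = 0.0213), Myc (1.83, adjusted p = 0.00096) and Tnfrsf19 (3.25, adjusted p = 0.00129) passed in Model. Ascl2 had missed the threshold there in the main fit. That scaling also raised the median of all genes in Model from 0.02 to 0.39. In CUR under that scaling, Ascl2 (1.28, adjusted p = 0.0728), Smoc2 (1.03, adjusted p = 0.118) and Sox9 (0.65, adjusted p = 0.182) lost their calls, and Myc, Tnfrsf19 and Lrig1 kept theirs. The part of muscle and of differentiated epithelium in the marker differences was not tested.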

How the data were processed

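Total RNA was sequenced in 10 libraries (5 groups, 2 each), with groups and replicate numbers from the sample titles. The authors deposited FPKM values per RefSeq transcript. Per the submitters' processing notes, the builds were mm10 and GRCm38 and the tools were Cuffdiff, TopHat2 2.0.9, Bowtie2 2.1.0.0 and bcl2fastq 2.17.1.14, without role or order; strand and treatment of duplicates are not given in the sources used here. Cuffdiff divides fragments among transcripts by a model, so transcript values are estimates. FPKM removes the read number, so depth is unknown and no counting interval is given. FPKM sums ran from 515959 to 720895.

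Of 30073 transcript rows, 29443 got a gene name from RefSeq (GRCm38.p6) and 179 from GENCODE, which named Olfm4. FPKM was summed per gene. Genes that reached 1 FPKM in 2 or more libraries were tested in R 4.3.3 with limma 3.58.1, on log2(FPKM + 1) values (intensity trend, all 10 libraries in 1 fit, 5 residual and 2.96 prior degrees of freedom, two-sided). Benjamini-Hochberg adjustment was over all 14061 genes of a comparison, with a threshold of 0.05. The steps were tested on simulated data. Errors are SDs over 2 libraries or limma standard errors.

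The markers and gene lists were chosen with earlier results of these data known. The rule for naming took all 10 markers, up to 4 genes per list by smallest p past the threshold in Model against Control, the fixed genes Axin2, Epcam, Des and Krt5, and the genes closest to Lgr5 and Olfm4. Rgmb, Cdx1, Lgr4, Mki67, Wnt5a, Wnt10a, Hoxd13, Cdx2, Trp63, Krt1, Krt10, Krtdap and Dsg3 were named after their values were seen. The value of 1 listed gene is not reported here.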

Additional observations from a re-analysis of the deposited data

How the results depend on the processing

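The 10 comparisons were recomputed under 20 alternatives: pseudocount 0.1, no filter on low values, scaling to the same FPKM sum, median-of-ratios scaling, scaling to the general epithelial list, the highest transcript in place of the sum, the replicate block, only the groups compared, no intensity trend, each library left out in turn, and, chosen after the data were seen, ASA replicate 0 and ASA+CUR replicate 0 left out together. The number of markers past the threshold in CUR against Control went from 6 to 3 relative to the general epithelial list. In ASA against Control it went from 7 to 4 without those 2 libraries together, where Ascl2, Ephb2 and Lrig1 were lost; fewer libraries entered these fits. With a library left out, the counts ran from 1 to 7 in Model, 3 to 8 in ASA, 1 to 6 in CUR, and 6 to 8 in ASA+CUR and in the average of the 4 groups, all against Control. They stayed at 0 in the 5 comparisons among AOM/DSS groups under all alternatives. A group left with 1 library was assumed to vary like the others. Under the alternatives, calls among all genes were counted only for Model and for the average of the 4 groups, both against Control. For ASA, CUR and ASA+CUR the marker counts therefore cannot tell whether markers lost calls more often than other genes. Of 2000 values for single markers, 1894 kept their side of the threshold, 89 lost it, 17 gained it, and none past the threshold changed sign. Sign changes occurred in 51 values, with adjusted p of 0.432 or more. Of these 4 were against Control, all in Prom1, whose ASA difference of 0.32 became -0.68 without ASA replicate 1. Without ASA replicate 0, ASA against Model went from -0.40 to 0.60 for Prom1, and ASA+CUR against ASA from -0.36 to 0.69 for Olfm4. The cause of these changes was not tested. The main fit did not pair libraries by replicate number. Over 10 pairs of groups, the deviations of same-numbered libraries correlated at -0.214 to 0.326, with 3 above 0.1. With 2 libraries a group, these values cannot decide whether some groups were paired. With the replicate block the counts were 6 in Model, 6 in ASA, 6 in CUR, 7 in ASA+CUR and 7 for the average. Among all genes, Model against Control called 2276, and from 553 without Control replicate 1 to 3073 without CUR replicate 0. Depth limits the low genes most, and Olfm4 rested on 2 libraries.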
